A study of Mus musculus with 8 samples.

Results

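The miR-148 and miR-152 family was followed in the pubertal mouse mammary gland, where 3 of the 611 mouse miRNAs on the array carry its name: mmu-miR-148a, mmu-miR-148b and mmu-miR-152. They were taken by their array names. The donors were beta actin-GFP reporter mice, FVB/n females aged 5 weeks, in which a general promoter drives green fluorescent protein. Their glands gave 3 dissected tissues, with 3 arrays of terminal end buds (TEBs), 2 of mature ducts and 3 of distal stroma, and 100 ng of total RNA from each sample was labelled with Cy3 and read on a single-colour array. The sources used here do not say how many animals went into a sample, so the p-values below measure the spread between these samples, which may be partly technical.

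miRNAs silence messenger RNAs by pairing with them, chiefly through the seed near the 5′ end of the miRNA, and members of a family that share a seed are expected to share many targets. The miR-148 and miR-152 family is known for repressing Dnmt1, the maintenance DNA methyltransferase, and miR-148a is among the most abundant miRNAs of milk and of the lactating mammary epithelium. TEBs are the proliferating, invading tips of the growing ducts, mature ducts are the differentiated tubes behind them, and the stroma is the fat pad that they grow into.

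The mature sequences are shown because the seed defines the family and because the members differ by so few bases. They are RefSeq sequences on build GRCm38.p6, printed 5′ to 3′ with the seed (bases 2 to 8) in capitals, and all 3 members had an entry. The array names without an asterisk were taken as the 3p arms and miR-148a*, the other arm of the miR-148a hairpin, as the 5p arm.
mmu-miR-148a (chr6:51269829-51269850, minus strand): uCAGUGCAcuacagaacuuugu
mmu-miR-148b (chr15:103285185-103285206, plus strand): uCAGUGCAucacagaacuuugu
mmu-miR-152 (chr11:96850439-96850459, plus strand): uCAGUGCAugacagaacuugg
mmu-miR-148a* (chr6:51269867-51269888, minus strand): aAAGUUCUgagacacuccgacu

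Of the 1679 mature mouse miRNAs in the RefSeq table, these 3 (0.179%) were the entries with the seed CAGUGCA. Counted from the 5′ end, miR-148a and miR-148b differed at 2 of 22 positions, C9U and U10C. miR-152 differed from miR-148a at 3 of the 21 positions compared, C9U, U10G and U20G, and was 1 base shorter. All of these differences lie outside the seed. The 3 hairpins lie on separate chromosomes. Mir152 lies within the span of Copz2 and Mir148b within that of its paralogue Copz1, both of which encode zeta subunits of the COPI vesicle coat, and Mir148a lies within the span of the predicted gene Gm38821.

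Of the 3 members, miR-148a and miR-152 were detected on all 8 arrays and miR-148b on none, by the detection flag of the scanner software. The software gave miR-148a an error of 7.78% to 8.95% of its signal on each array and miR-152 an error of 8.74% to 10.8%. The values below are signals multiplied by a factor for each array, which made the 75th percentile of the 108 miRNAs detected throughout the same on all arrays. Their log2 values were compared by limma over 167 miRNAs, those that all arrays of some tissue detected. A scaled signal describes a miRNA across arrays and cannot be set against that of another miRNA, since probes differ in their response.

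The tissues matched their labels for the epithelium. The 6 epithelial marker miRNAs (the miR-200 family and miR-205) summed to 1948 to 2057 scaled units on the TEB arrays and 2077 to 2316 on the duct arrays, against at most 5.52 on a stroma array. The marker lists of other cells did not mark the stroma in the same way. As probes differ in response, a sum leans towards the markers with the brightest probes. The 5 fibroblast and smooth muscle markers, of which miR-145 was never detected, summed to 2467 to 2964 units in stroma, 3427 and 3512 in ducts and 3160 to 3779 in TEBs. Most of this sum came from miR-199a-3p. Of the 4 tested, 3 were called higher in TEBs than in stroma, beside 34 of all 167 tested miRNAs. The fourth, miR-143, was called lower (-0.40, adjusted p = 0.035 from limma), beside 74 of the 167. Of the 2 endothelial markers miR-126-3p was detected, with a stroma mean of 3385 ± 563 units (SD, n = 3), a duct mean of 1994 ± 94 (SD, n = 2) and a TEB mean of 1465 ± 170 (SD, n = 3). The 5 leukocyte markers, of which 3 were never detected, summed to 563 to 679 units in stroma and to 296 to 450 in the epithelial tissues, mostly from miR-223. The 3 red cell markers summed to 1385 to 1923 units in TEBs, 2617 to 3320 in ducts and 2018 to 3622 in stroma. Called lower in TEBs than in stroma were 3 of 3 red cell markers, the 1 tested endothelial marker and 1 of 2 tested leukocyte markers. Of all 167 tested miRNAs, 108 (64.7%) were called in this comparison, 74 lower and 34 higher. The members, the miR-29 family and the listed Hox-cluster miRNAs below also lay lower in TEBs, as did the median of all tested miRNAs (-0.28). The 4 skeletal muscle markers, of which miR-206 was never detected, summed to 17.1 to 89.5 units in TEBs, 56.1 and 179 in ducts and 31.2 to 60.2 in stroma. The part of these cells in the values given below was not tested. In such bulk samples, fewer cells of a type and less RNA per cell cannot be told apart.

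miR-148a, the milk miRNA of the family, had scaled signals of 274.1, 381.9 and 340.4 in TEBs, 330.2 and 387.6 in ducts and 405.1, 423.2 and 318.6 in stroma. The ranges of all 3 tissues overlapped, with TEB replicate 1 the lowest and stroma replicate 2 the highest array. The TEB mean was 332 ± 54 (SD, n = 3), the duct mean 359 ± 41 (SD, n = 2) and the stroma mean 382 ± 56 (SD, n = 3).

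miR-152, which regulates Dnmt1 as its relatives do, had scaled signals of 95.3, 111.9 and 105.6 in TEBs, 106.6 and 127.2 in ducts and 125.9, 117.7 and 134.7 in stroma. The order of the means was the same as for miR-148a, with a TEB mean of 104 ± 8.4 (SD, n = 3), a duct mean of 117 ± 15 (SD, n = 2) and a stroma mean of 126 ± 8.5 (SD, n = 3). After scaling, all 3 of the TEB arrays lay below all 3 stroma arrays, and the duct arrays overlapped both. TEB and stroma arrays did not overlap for 71.9% of all tested miRNAs either. Before scaling, the TEB signals of miR-152 (94.6 to 118) and its stroma signals (98.1 to 123) overlapped. Under the reported scaling ducts lay between the other tissues for both members and could not be told from either neighbour in that order. The order depended on the scaling. Ducts had the highest mean of both members before scaling and the lowest with scaling to the 75th percentile of all mouse miRNAs.

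**Figure D1:**
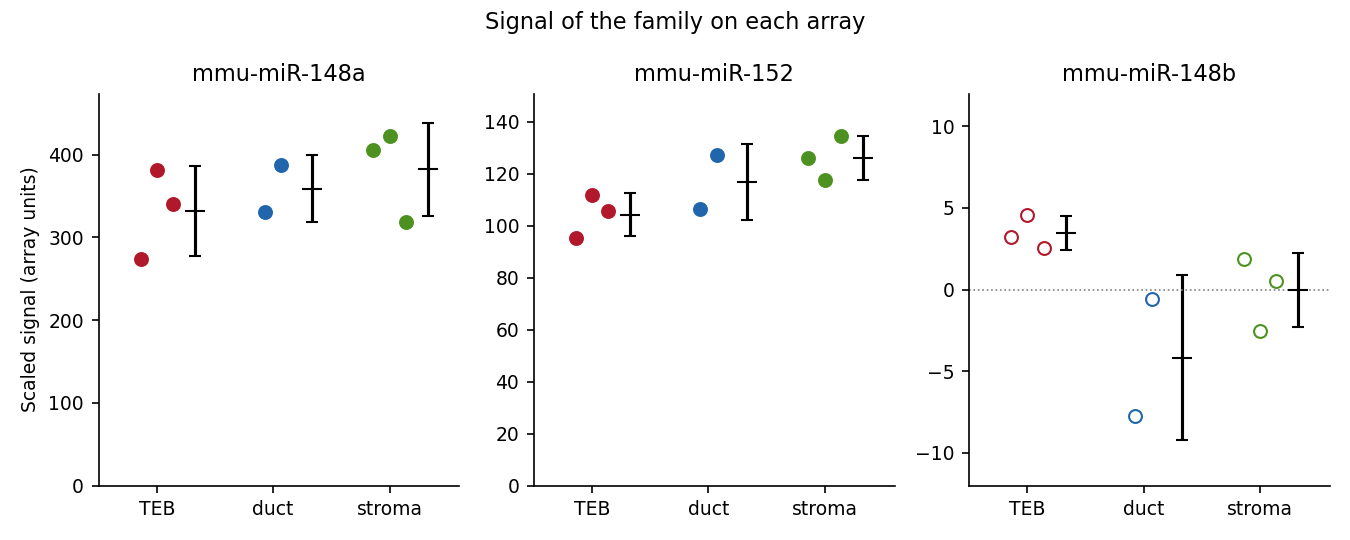
Scaled signal (array units, y axis) of the 3 members on each TEB, duct and stroma array (x axis); filled points are detected, open points are not, and the black bars are the mean ± SD (n = 3, 2 and 3). Under the reported scaling the tissue means of miR-148a ran from 332 to 382 units and those of miR-152 from 104 to 126. miR-148b lay between -7.75 and 4.58 units around 0.

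Between TEBs and ducts, the question of what changes as the invading tip matures, neither of the 2 tested members passed an adjusted p of 0.05, where 24.6% of all tested miRNAs did (41 of 167). On the log2 scale TEBs less ducts came to -0.12 for miR-148a (95% interval -0.58 to 0.34, adjusted p = 0.66 from limma) and -0.16 for miR-152 (95% interval -0.47 to 0.14, adjusted p = 0.36). As ratios these intervals run from 0.667 to 1.27 for miR-148a and from 0.723 to 1.10 for miR-152. The sign of both changes depended on the scaling. It was positive with scaling to the 75th percentile of all mouse miRNAs, at 0.43 and 0.39, and with no scaling it was negative, at -0.49 for miR-148a and at -0.53 for miR-152, the latter with an adjusted p of 0.049 from limma.

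Between TEBs and stroma, the members were again not called, against 64.7% of all tested miRNAs (108 of 167). miR-152 came nearest, with a log2 fold change of -0.28 (95% interval -0.55 to -0.0029, adjusted p = 0.071 from limma), or a ratio of 0.826. Under the reported scaling its arrays did not overlap, as held for 71.9% of the tested miRNAs, and before scaling they overlapped. The exact permutation test on the scaled values gave p = 0.1, below which this number of arrays cannot go. The change of miR-152 passed with normexp background correction (-0.31, adjusted p = 0.0070 from limma) and with trend and robust estimation (-0.28, adjusted p = 0.044), and was 0.12 with scaling to all mouse miRNAs. miR-148a changed by -0.21 (95% interval -0.62 to 0.21, adjusted p = 0.33), with arrays that overlapped.

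Between ducts and stroma, where 21.6% of the tested miRNAs were called (36 of 167), the members were not. The log2 fold change of ducts over stroma was -0.085 for miR-148a (95% interval -0.55 to 0.38, adjusted p = 0.82 from limma) and -0.11 for miR-152 (95% interval -0.42 to 0.19, adjusted p = 0.63). Within the 2 rows of the slide, the change of miR-148a was -0.30 in the first, with 1 duct and 1 stroma array, and 0.078 in the second, with 1 duct and 2 stroma arrays. Without duct replicate 1 both changes were close to 0, at 0.031 for miR-148a and 0.015 for miR-152.

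Epithelium as a whole, the mean of TEBs and ducts, was set against stroma in the same fit. The members were not called, where 44.3% of the tested miRNAs were (74 of 167). The log2 fold change was -0.15 for miR-148a (95% interval -0.52 to 0.23, adjusted p = 0.45 from limma) and -0.19 for miR-152 (95% interval -0.44 to 0.052, adjusted p = 0.15). The 5 epithelial arrays overlapped the 3 stroma arrays for both members, with p = 0.36 for miR-148a and p = 0.11 for miR-152 by the exact permutation test (two-sided, smallest possible p 0.018). The change of miR-152 passed with normexp background correction, at -0.26 (adjusted p = 0.011 from limma). Within the slide rows it was -0.27 in the first and -0.12 in the second.

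**Figure D2:**
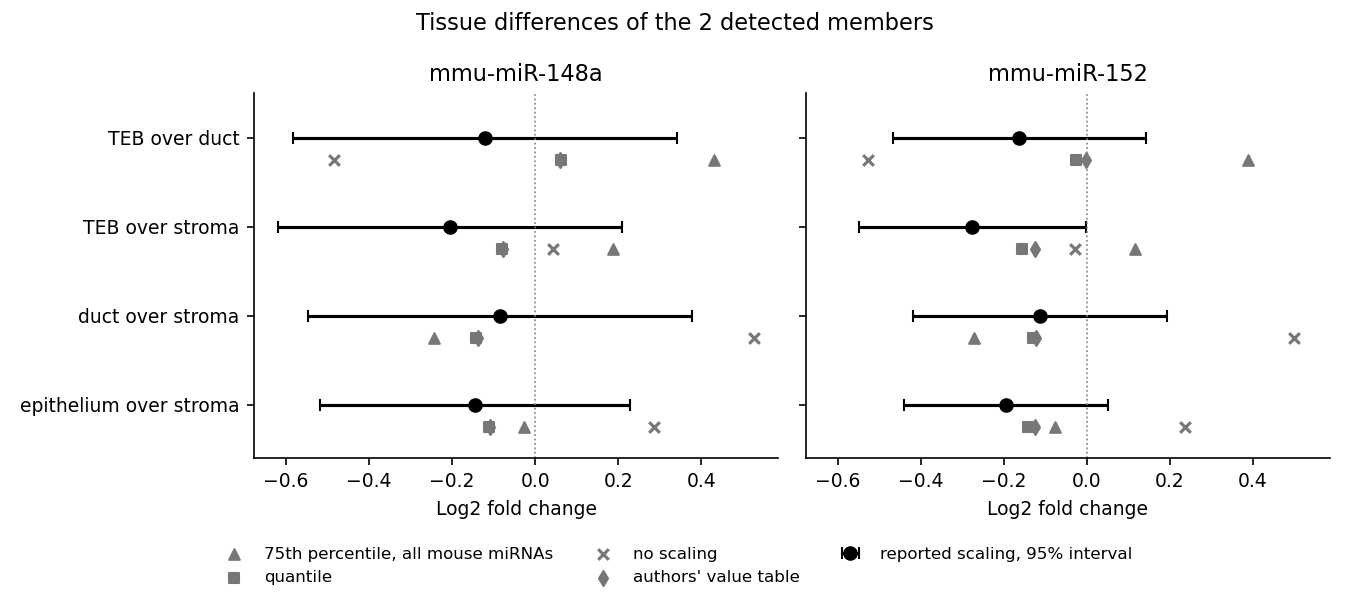
Log2 fold change (x axis) of miR-148a and miR-152 in the 4 comparisons (y axis); black points are the fitted values with 95% intervals, grey symbols the values under other scalings of the arrays. The black intervals hold 0 except that of miR-152 for TEBs over stroma, which ends at -0.0029, and the grey symbols lie on both sides of 0 in all 4 comparisons.

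The changes of the members lay close to the median of the tested miRNAs. The median log2 fold change of the 167 tested miRNAs was -0.10 for TEBs over ducts, -0.28 for TEBs over stroma, -0.089 for ducts over stroma and -0.24 for epithelium over stroma, and it moved by more than 0.1 with the scaling, for example to 0.45 between TEBs and ducts with scaling to all mouse miRNAs and to -0.47 with no scaling. Less that median, the log2 fold change of miR-148a lay between -0.053 and 0.092 over the 4 comparisons under the reported scaling and 4 others, and that of miR-152 between -0.10 and 0.043. A factor for each array moves all miRNAs alike, so that this difference is nearly fixed among the reported scaling, scaling to all mouse miRNAs and no scaling, and quantile normalization and the authors' value table are the settings that could change it. On the deposited signals before any scaling, the mean of miR-148a was 462 in ducts, 334 in TEBs and 328 in stroma. That of miR-152 was 150 in ducts, 105 in TEBs and 107 in stroma. The median change of all tested miRNAs was then 0.50 for ducts over stroma and -0.47 for TEBs over ducts. The direction of the calls among all miRNAs followed the scaling too: 46.3% of those called between TEBs and ducts were higher in TEBs, against 80.0% with scaling to all mouse miRNAs, 68.9% with quantile normalization, 64% in the authors' value table and 16% with no scaling. The share of higher calls for TEBs over stroma was 31.5%, and ran from 40.6% to 57.6% under the other scalings. For ducts over stroma it was 44.4%, against 92.9% with no scaling and 57.9% with scaling to all mouse miRNAs, and for epithelium over stroma 41.9%, against 85.2% and 65.9%.

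Under the reported scaling, the changes of both members were smaller than the median change by size. The absolute log2 fold change of miR-148a between TEBs and ducts was larger than that of 32 of the 167 and that of miR-152 larger than that of 42, with a median over all of 0.43. Between epithelium and stroma these counts were 27 and 33, with a median of 0.56. The SD of the log2 signal over the 8 arrays was 0.21 for miR-148a and 0.17 for miR-152, against a median of 0.50 over all tested miRNAs, and 13 miRNAs had a smaller SD than miR-152. These ranks were taken under that scaling alone, and the absolute change between TEBs and ducts was 0.43 for miR-148a and 0.39 for miR-152 with scaling to all mouse miRNAs. They describe the 2 members and do not test the family.

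**Figure D3:**
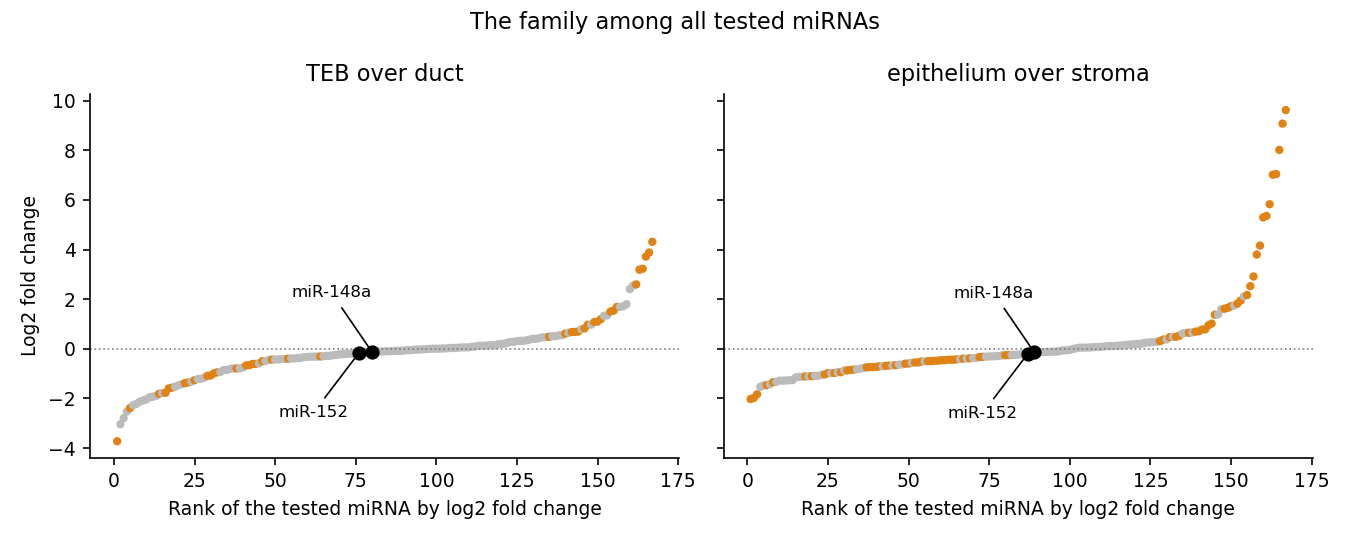
Log2 fold change (y axis) of all 167 tested miRNAs in rank order (x axis), for TEBs over ducts and for epithelium over stroma; orange points passed an adjusted p of 0.05 and the 2 black points are the family members. Both members lie in the flat middle of each curve, at -0.12 and -0.16 on the left and -0.15 and -0.19 on the right.

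The ratio of miR-148a to miR-152 on the same array does not depend on the scaling between arrays. It was 2.88, 3.41 and 3.22 in TEBs, 3.10 and 3.05 in ducts and 3.22, 3.6 and 2.37 in stroma, and stroma replicate 3, which had the lowest ratio, lay apart from the rest of its tissue. As probes respond differently, only the change of this ratio between tissues can be read. Its log2 value had a TEB mean of 1.66 ± 0.13 (SD, n = 3), a duct mean of 1.62 ± 0.02 (SD, n = 2) and a stroma mean of 1.59 ± 0.31 (SD, n = 3). The epithelial arrays exceeded the stroma arrays by 0.053 on average, with p = 0.80 by the exact permutation test, and the tissue pairs differed by 0.028 to 0.070. Leaving out single arrays moved the difference between epithelium and stroma from -0.12 to 0.18, so that unequal changes of the 2 members of about that size could not have been seen.

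miR-148b, the member encoded within Copz1, gave scaled signals of 3.23, 4.58 and 2.52 in TEBs, -7.75 and -0.60 in ducts and 1.88, -2.53 and 0.55 in stroma. None was flagged as detected, and no signal exceeded its own scanner error by more than 1.07 times. The 3 TEB arrays were higher than the other 5, but the same held for 167 of the 408 miRNAs detected on no array (40.9%), whose median scaled signal was also higher on the TEB arrays (-7.96 to -4.31) than on the others (-16.8 to -8.45). The part of this shift in the miR-148b values was not tested, and no fold change is given. The probe stayed at this level on arrays where miR-148a, which differs from it at 2 bases, was detected with an error under 9% of its signal. A miR-148b probe without any response would read the same, and cross-hybridization between the members was not tested.

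The other arm of the miR-148a hairpin, miR-148a*, has another seed, AAGUUCU. It was negative on all 8 arrays, with scaled signals of -9.95 to -4.39 in TEBs, -10.9 and -7.37 in ducts and -14.4 to -7.83 in stroma, and was never flagged as detected. The hairpin was recorded from its 3p arm alone on these arrays. The other arms of miR-148b and miR-152 were not analysed here.

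Other miRNAs with links to the family's biology were read from short lists. The miR-29 family, which represses the de novo methyltransferases Dnmt3a and Dnmt3b, was detected on all arrays and was lower in TEBs than in stroma for 3 of 3 members, with log2 fold changes of -0.64 for miR-29a (adjusted p = 0.0015 from limma), -0.92 for miR-29b (adjusted p = 0.030) and -0.80 for miR-29c (adjusted p = 0.0024). None of the 3 passed between TEBs and ducts. With scaling to all mouse miRNAs and with no scaling 0 of the 3 were called between TEBs and stroma, although all stayed below 0. Beside them miR-148a and miR-152, at -0.21 and -0.28 in that comparison, were not called. For miR-29a the TEB mean was 996 ± 50 units (SD, n = 3), the duct mean 1215 ± 92 (SD, n = 2) and the stroma mean 1555 ± 96 (SD, n = 3). The median change of the 3 was -0.80, beside -0.28 over all 167 tested miRNAs. Of these, 108 (64.7%) were called, 74 lower and 34 higher.

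The Hox-cluster list held 4 miRNAs encoded inside the Hox clusters, miR-10a, miR-10b, miR-196a and miR-196b. It is not the full set of miRNAs encoded there, and the counts and medians below are of the listed ones. Under the reported scaling 4 of 4 were called lower in TEBs than in stroma. Of all 167 tested miRNAs, 108 (64.7%) were called there, 74 lower and 34 higher. With scaling to all mouse miRNAs or with no scaling 2 of 4 were called, and all 4 changes stayed below 0. miR-196a had a log2 fold change of -1.98 (adjusted p = 4.0e-05 from limma), from 213 ± 33 units in stroma (SD, n = 3) to 53.6 ± 3.4 in TEBs (SD, n = 3), and miR-196b one of -1.94 (adjusted p = 0.00032). miR-10a and miR-10b changed less, by -0.69 (adjusted p = 6.4e-04) and -0.79 (adjusted p = 0.0044). Between TEBs and ducts, miR-10a, miR-10b and miR-196b were called lower in TEBs under the reported scaling, a count of 3 of 4. Of all 167 tested miRNAs, 41 (24.6%) were called in this comparison, 22 lower and 19 higher. The count of listed Hox-cluster miRNAs was 0 of 4 with scaling to all mouse miRNAs, with quantile normalization and in the authors' value table. Their median was -1.36 for TEBs over stroma and -0.64 for TEBs over ducts, beside -0.28 and -0.10 over all tested miRNAs.

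miRNAs often found in milk were listed as company for miR-148a, and all 24 were on the array, 19 of them tested and 4 never detected. Between TEBs and stroma 5 were higher in TEBs and 9 lower, and between ducts and stroma 6 were higher in ducts and 5 lower, beside 64.7% and 21.6% called of all tested miRNAs in these comparisons. The median log2 fold change of the 19 was -0.16 for TEBs over stroma, beside -0.28 over all tested miRNAs. The higher ones in TEBs were miR-183 and 4 of the miR-200 family (miR-200c, miR-200b, miR-141 and miR-200a). The same 5 were among the 6 higher in ducts. They were detected on no stroma array, so that they entered the tests through the epithelial tissues alone. Their fold change depends on the floor. miR-200c, for instance, averaged 821 ± 16 units in TEBs (SD, n = 3) and -16.2 ± 5.9 in stroma (SD, n = 3). Among the lower ones were miR-378, at -1.66 (adjusted p = 0.0054 from limma), and miR-22, at -0.77 (adjusted p = 2.9e-04). With scaling to all mouse miRNAs the split was 6 higher and 1 lower. Between TEBs and ducts 1 was higher, miR-183, and 1 lower, miR-200a, where 24.6% of all tested miRNAs were called.

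**Figure D4:**
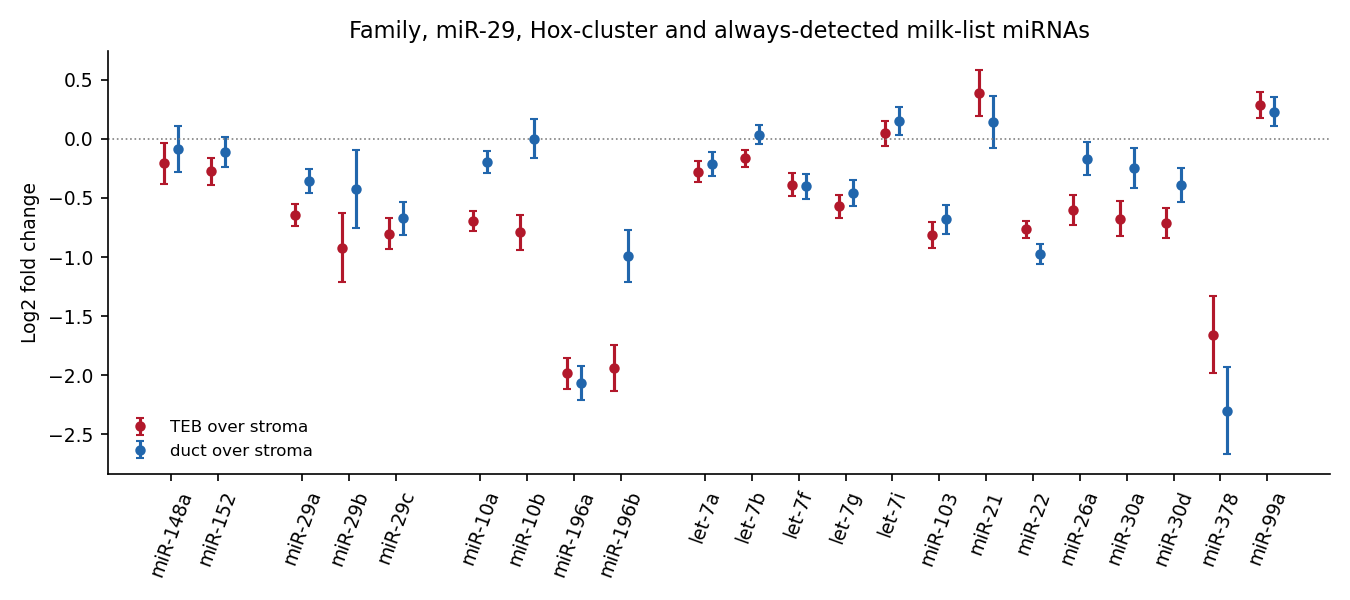
Log2 fold change of TEBs over stroma (red) and of ducts over stroma (blue) with standard errors (y axis) for miR-148a and miR-152, the miR-29 family, the listed Hox-cluster miRNAs and the milk-list miRNAs detected on all 8 arrays (x axis). miR-148a and miR-152 lie near 0, between -0.28 and -0.085, while miR-196a and miR-378 lie near -2.

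Profiles over the 8 arrays were compared by the Pearson correlation of the log2 scaled signals, as a description of points that share arrays and scaling factors. The nearest of the other 166 tested miRNAs to miR-148a were miR-16 (r = 0.92), miR-199b* (r = 0.89), miR-29b (r = 0.84), miR-15a (r = 0.79) and miR-30a (r = 0.74). Those nearest to miR-152 were miR-101a (r = 0.89), miR-29b (r = 0.84), miR-337-5p (r = 0.83), miR-362-3p (r = 0.81) and miR-26b (r = 0.81), so that miR-29b stood in both lists. The 2 members correlated with each other at r = 0.54, which placed miR-152 at rank 37 for miR-148a and miR-148a at rank 70 for miR-152. As the members varied little under the reported scaling, these orders rest on small differences. With quantile normalization 0 of the 5 neighbours of miR-148a were kept and 2 of those of miR-152, and with no scaling 3 and 0.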

How the data were processed

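The authors deposited, per the file headers, the total gene signal of each miRNA as an intensity from Agilent Feature Extraction (9.5.3 in the submitters' processing notes), background-subtracted and summed over probes, with its error and a detection flag, and no normalization between arrays. The deposited value table of the series holds log2 values that rank the miRNAs of an array as its signals above 1 do. How the authors normalized it is not given in the sources used here, and it served as an alternative. Its highest value was the same, 12.71, on every array but TEB replicate 3 (12.63). Its change of miR-148a for TEBs over ducts, 0.061, lay close to the 0.063 of quantile normalization. It may therefore not be a check separate from quantile normalization.

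Control probes and 39 viral miRNAs were left out. The 611 mouse miRNAs of each array were multiplied by a factor (0.750 to 1.36) that brought to a common value the 75th percentile over those 108 miRNAs that all 8 arrays detected, since 23.2% to 27.7% of the miRNAs were detected per array. A floor of 1 was applied after scaling, and the log2 signals were fitted with limma 3.58.1 in R 4.3.3, all 8 arrays together, with Benjamini-Hochberg adjustment over the 167 tested miRNAs in each comparison. Single values were compared by exact permutation tests. Alternatives were other scalings, normexp, other filters and variance estimates, a replicate block, and leaving out each array. The procedure was tested on simulated data, in which 30 of 108 miRNAs were moved by a log2 change of 2 in TEBs. Between TEBs and ducts it recovered 100% of them, with 2 false calls. The members' changes were far smaller, so this does not show that changes of their size could be found. Precision rests on 2 or 3 arrays per tissue. Within a tissue the log2 signals correlated at r of 0.955 to 0.987 across miRNAs.

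The named miRNAs were the members, miR-148a*, the 5 nearest profiles of each tested member, and up to 4 miRNAs of each list with the largest change of TEBs over ducts or epithelium over stroma. miR-183, miR-22, miR-378 and the markers miR-126-3p, miR-143, miR-145, miR-199a-3p, miR-205, miR-206 and miR-223 fall outside this rule and were named after their values were seen. The members and lists were chosen with earlier results of these data known.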

Additional observations from a re-analysis of the deposited data

How the results depend on the processing

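Neither member was called in any comparison of the reported fit, and miR-148a in none of the alternatives run. The signs of these small changes were less stable. With scaling to the 75th percentile of all mouse miRNAs, the log2 fold change of TEBs was 0.43 over ducts and 0.19 over stroma for miR-148a, and 0.39 and 0.12 for miR-152. For miR-148a over ducts it was 0.063 with quantile normalization and 0.061 in the authors' value table. With no scaling, miR-148a stood at 0.043 for TEBs over stroma, 0.53 for ducts over stroma and 0.29 for epithelium over stroma, and miR-152 at -0.53 for TEBs over ducts (adjusted p = 0.049 from limma), 0.50 for ducts over stroma and 0.24 for epithelium over stroma. miR-152 was also called with normexp and an offset of 50, at -0.31 for TEBs and -0.26 for epithelium over stroma, and with trend and robust estimation, at -0.28 for TEBs over stroma. These scalings differ by construction in the miRNAs they set equal; which is nearer to the RNA was not tested.

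Leaving out each array in turn moved miR-148a from -0.24 to 0.011 between TEBs and ducts (the highest without TEB replicate 1), from -0.21 to 0.031 between ducts and stroma, and miR-152 from -0.24 to 0.015 between ducts and stroma (both highest without duct replicate 1). A lone duct array is then assumed to vary like the other tissues.

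The number of miRNAs called between TEBs and ducts was 75 with no scaling, 18 with no detection filter, 16 with the replicate block, 12 by the methods' t-test and 5 to 45 without single arrays, the lowest without TEB replicate 2 (7 without duct replicate 1 and 25 without duct replicate 2). Between TEBs and stroma it was 66 with all mouse miRNAs. Between ducts and stroma it was 19 with all mouse miRNAs, 56 with no scaling, 66 with normexp and 22 to 40 without single arrays, the lowest without duct replicate 1. For epithelium over stroma it was 41 with all mouse miRNAs and 122 with normexp. At an unadjusted threshold the methods' t-test gave 53, 108, 47 and 65 in the 4 comparisons, and after adjustment 12, 85, 26 and 50. Same-numbered arrays of different tissues did not deviate together (mean r -0.10 over 7 pairs), so the numbers were not taken as pairs, and the replicate block changed no call of a member.

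Of the 5 nearest profiles of miR-148a, 3 were kept with all mouse miRNAs, 0 with quantile normalization, 3 with no scaling and 3 to 5 without single arrays. Of those of miR-152, 0, 2 and 0 were kept under the same settings, 3 with normexp and 1 to 4 without single arrays. The fit of only the tissues compared has no value for epithelium as a mean of 2 tissues. With 2 duct arrays, changes of the size of the intervals given for the members could not be resolved.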
